A study of Mus musculus with 28 samples.

Results

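Collagens are the structural proteins of the extracellular matrix, and the mouse genome encodes their chains in a large family of genes named Col, a type number, a and a chain number. The members described here are all 44 genes of the 28244 in the deposited count table whose symbol has that form. They were chosen by name and not by any measured value. The study asked whether cells like the neural stem cells (NSCs) of the brain can be grown from mouse tissues outside the central nervous system, and called such cells peripheral neural stem cells (pNSCs). Poly(A) RNA of 28 samples was sequenced in 11 groups, 5 groups of 2 samples and 6 groups of 3.

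The groups belong to 3 experiments, and the labels give the strain C57BL/6 for every sample, whereas the study's methods also name other backgrounds for its wild-type and transgenic mice. The mouse line of the first experiment, and which of the derivations in the labels each group used, come from the study and not from the sample labels. In that experiment, cells of mice with GFP under regulatory elements of Nestin (Nes-GFP), an intermediate filament gene of neural progenitors, were sorted for GFP from lung at around 4 to 6 weeks of age (Lung-pNSC) or from tail at around postnatal day 1 to 5 (Tail-pNSC). The sorted cells were grown for 3 weeks in serum-free NSC medium with EGF and bFGF, and single clusters were picked, so that a line descends from 1 cluster. Brain-NSC, the brain control line of this experiment, was derived from whole brain, and Lung and Tail are cells of the source tissues. Tail cells are listed in the protocols as postnatal (around day 1 to 5), whereas brain and lung cells are listed both as adult and as postnatal, so the age of Brain-NSC and Lung is not settled by them, and whether the tissue cells had been cultured is not given in the sources used here. In the second experiment the mice carried Wnt1-Cre, which is active in the neural crest, and the R26-mTmG reporter, which turns from Tomato to GFP where Cre has acted. The Wnt1Cre-mTmG Tail pNSCs and Wnt1Cre-mTmG DRG pNSCs came from unsorted cells of postnatal tail and dorsal root ganglion (DRG), which the protocols put at around day 1 to 5, and their clusters were positive for Tomato and negative for GFP in the study. They were compared with Wnt1Cre-mTmG brain NSCs and with DRG NCSCs, neural crest stem cells from DRG of adult wild-type mice. In the third experiment the mice carried a GFP knock-in at Sox2, a transcription factor gene of NSCs, and the groups were Sox2-GFP lung pNSCs from sorted GFP-positive cells of postnatal lung and Sox2-GFP brain NSCs. No single age is given for the brain NSCs of these lines either. Nothing in the labels ties a replicate to its own animal, so the p-values here measure the spread between these samples only. That spread was small, with a common coefficient of variation of 0.0155 to 0.0480 in the fits of the 3 experiments.

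A collagen molecule is a triple helix of 3 alpha chains, and the supramolecular form divides the family into classes. Fibrillar collagens (types I, II, III, V, XI, XXIV and XXVII) form the fibrils of skin, bone and cartilage, and the FACIT collagens (fibril-associated collagens with interrupted triple helices) decorate those fibrils. Type IV builds the network of basement membranes, the sheets on which epithelia, vessels and Schwann cells rest and which NSCs of the adult brain niche contact. Type VI forms beaded filaments, types VIII and X short-chain networks, type VII anchoring fibrils, and types XV and XVIII, the multiplexins, lie at basement membranes. The 44 genes comprised 11 fibrillar, 9 FACIT, 6 basement membrane, 6 beaded filament, 4 transmembrane, 3 short-chain and 2 multiplexin genes, 1 anchoring fibril gene and 2 others, Col26a1 and Col28a1.

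Levels are given as cpm, the usual unit of a count divided by library size, after 1 scaling of all 28 libraries together (TMM, edgeR's trimmed mean method), and levels of different genes were set side by side only as cpm per kilobase of merged exons. Libraries held 9808246 to 22637031 counts, at which 3 counts amount to 0.130 to 0.296 cpm. Squared differences between samples of a group averaged, over genes, 1.09 to 2.93 times what counting error alone gives in 21 pairs. In the 2 pairs that hold DRG NCSCs replicate 3 they averaged 18.1 and 22.7 times that value. Of the collagen genes, 29 have no other annotated gene lying over an exon and 15 do, 3 with a gene on the same strand and 12 on the opposite strand. The whole span of the other gene was used, introns included, so these overlaps need not involve its exons. Whether reads were counted by strand is not given in the sources used here. For Col4a1, Col4a2, Col5a1, Col9a3, Col15a1, Col18a1 and the others of these 15, reads of the overlapping gene among theirs can therefore not be excluded. All 5 NSC markers examined (Sox2, Sox1, Olig2, Pax6 and Nes) were above 3 counts in every sample of the 8 brain NSC and pNSC groups.

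Collagen RNA was scarce in every NSC-like group and abundant in the tissues. In Brain-NSC the 44 genes together took 0.0406% ± 0.000288 of all counts (SD, n = 2), in Tail-pNSC 0.0364% ± 0.000307 (n = 2) and in Lung-pNSC 0.0530% ± 0.000742 (n = 2). The Sox2-GFP brain NSCs stood at 0.0694% ± 0.000735 and the Sox2-GFP lung pNSCs at 0.0924% ± 0.000277 (n = 3 each). Wnt1Cre-mTmG brain NSCs held 0.0827% ± 0.000224, DRG pNSCs 0.0546% ± 0.00102 and Tail pNSCs 0.142% ± 0.000964 (n = 3 each). The last was the highest of the 8 brain NSC and pNSC groups, and its 3 samples, at 0.141 to 0.143%, overlapped with no other group. Lung reached 1.07% ± 0.0184, DRG NCSCs 2.02% ± 0.133 and Tail 13.6% ± 0.164. Lung-pNSC and Sox2-GFP lung pNSCs each lay above the brain NSCs of their own experiment in every sample, Tail-pNSC and the DRG pNSCs below theirs in every sample. In a bulk sample, fewer cells that express a gene and less RNA per cell cannot be told apart.

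**Figure D1:**
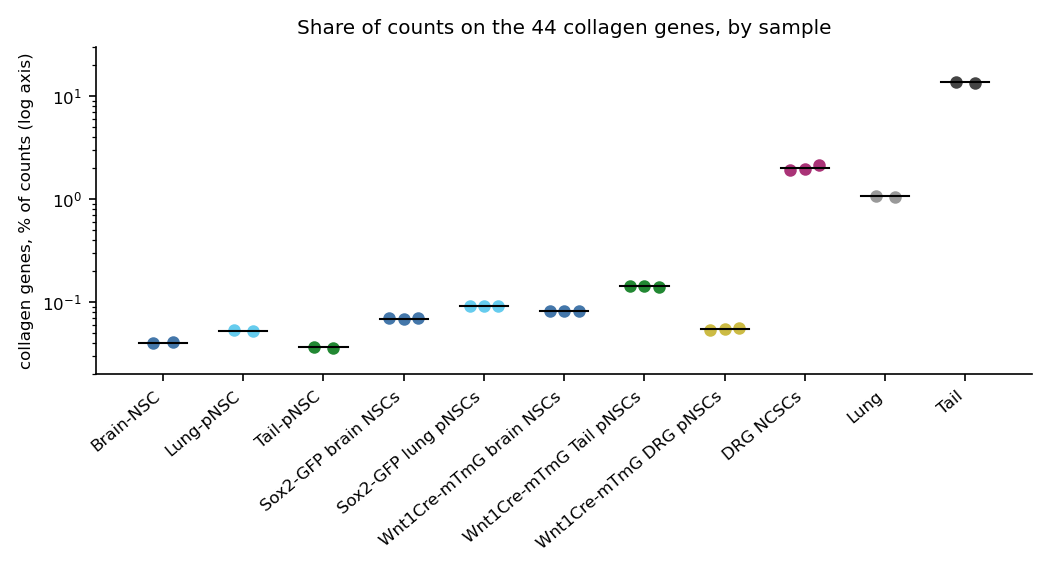
Share of each library's counts that fell on the 44 collagen genes, in percent on a log axis, with 1 point per sample and a bar at the mean of each of the 11 groups. The 8 brain NSC and pNSC groups have means between 0.0364 and 0.142%, against 1.07% in Lung, 2.02% in DRG NCSCs and 13.6% in Tail.

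Only a part of the family reached 10 cpm in NSC-like cells, although more of it was read. The genes above 3 counts in every sample of a group numbered from 24 (Wnt1Cre-mTmG DRG pNSCs) to 37 (Wnt1Cre-mTmG Tail pNSCs) in the 8 brain NSC and pNSC groups. These numbers depend on depth, which differed within that line. Libraries held 9808246 to 11431445 counts in the DRG pNSCs, 9846360 to 11315870 in the brain NSCs and 19648349 to 22548268 in the Tail pNSCs. A mean of at least 10 cpm was reached by 8 collagen genes in Brain-NSC, 8 in Lung-pNSC, 10 in Tail-pNSC, 11 in Sox2-GFP brain NSCs, 9 in Sox2-GFP lung pNSCs, 12 in Wnt1Cre-mTmG brain NSCs, 20 in Wnt1Cre-mTmG Tail pNSCs and 11 in Wnt1Cre-mTmG DRG pNSCs, against 26 in DRG NCSCs, 28 in Lung and 39 in Tail. The 6 genes at this level in all 8 brain NSC and pNSC groups were Col4a1 and Col4a5 of the basement membrane, the minor fibrillar chains Col5a2, Col5a3 and Col11a1, and the FACIT gene Col16a1. Another 16 genes reached it in some of these groups, 19 only in Lung, Tail or DRG NCSCs, and 3 (Col19a1, Col6a4 and Col6a5) in none of the 11. Across the 8 groups the mean of Col16a1 ranged from 31.8 to 138 cpm, Col5a3 from 18.7 to 82.8 cpm and Col4a5 from 22.8 to 106 cpm, a 4.32-, 4.43- and 4.67-fold spread. Col1a1, the alpha1 chain of type I collagen, ranged from 0.371 to 102 cpm, a 274-fold spread, and Col12a1, a FACIT gene of dense connective tissue, from 3.27 to 102 cpm, a 31.1-fold spread.

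Per kilobase of exon, the leading chains differed between NSC-like groups, although some groups shared a leader. In Brain-NSC, Col4a5 led with 10.9 ± 0.666 cpm per kb (SD, n = 2), followed by Col5a2 with 9.33 ± 0.0299. In Lung-pNSC, Col5a2 stood at 13.4 ± 0.507 and Col11a1 at 11.9 ± 0.236 cpm per kb, an order that turned when the longest transcript was taken as the length. In Tail-pNSC, Col16a1, Col5a1 and Col5a3 were within their spread of each other, at 6.32 ± 0.0956, 6.18 ± 0.0772 and 6.16 ± 0.331 cpm per kb. Col9a3, a chain of the cartilage FACIT collagen type IX, led in Sox2-GFP brain NSCs at 22.2 ± 0.508 and in Wnt1Cre-mTmG DRG pNSCs at 18.04 ± 0.651 cpm per kb, and Col11a1 led in Sox2-GFP lung pNSCs at 33.6 ± 0.168. In Wnt1Cre-mTmG brain NSCs, Col4a5, Col4a1 and Col5a2 lay close together at 15.9 ± 0.753, 14.7 ± 0.378 and 14.5 ± 0.292 cpm per kb. Wnt1Cre-mTmG Tail pNSCs were led by Col16a1 (20.4 ± 0.456) and Col3a1 (19.4 ± 0.279 cpm per kb), again in an order that depended on the length used. DRG NCSCs were led by the multiplexin gene Col18a1 at 590.2 ± 12.2 cpm per kb and Lung by Col4a1 at 285 ± 9.04.

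The make-up by class followed these leaders. Summed per kilobase, fibrillar genes made up 37.3% of the collagen signal in Brain-NSC, 40.8% in Tail-pNSC, 56.7% in Lung-pNSC, 29.01% in Sox2-GFP brain NSCs and 56.1% in Sox2-GFP lung pNSCs, the highest shares among NSC-like groups being those of the lung pNSCs of both lines. In Tail the fibrillar share was 77.8%. Type IV genes held 38.7% in Wnt1Cre-mTmG brain NSCs, 15.6% in the Tail pNSCs and 8.18% in the DRG pNSCs of that line, and the FACIT share of the DRG pNSCs was 48.2%. The type VI genes took 12.7% in Wnt1Cre-mTmG Tail pNSCs, against 0.115 to 1.92% in the other 7 brain NSC and pNSC groups.

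**Figure D2:**
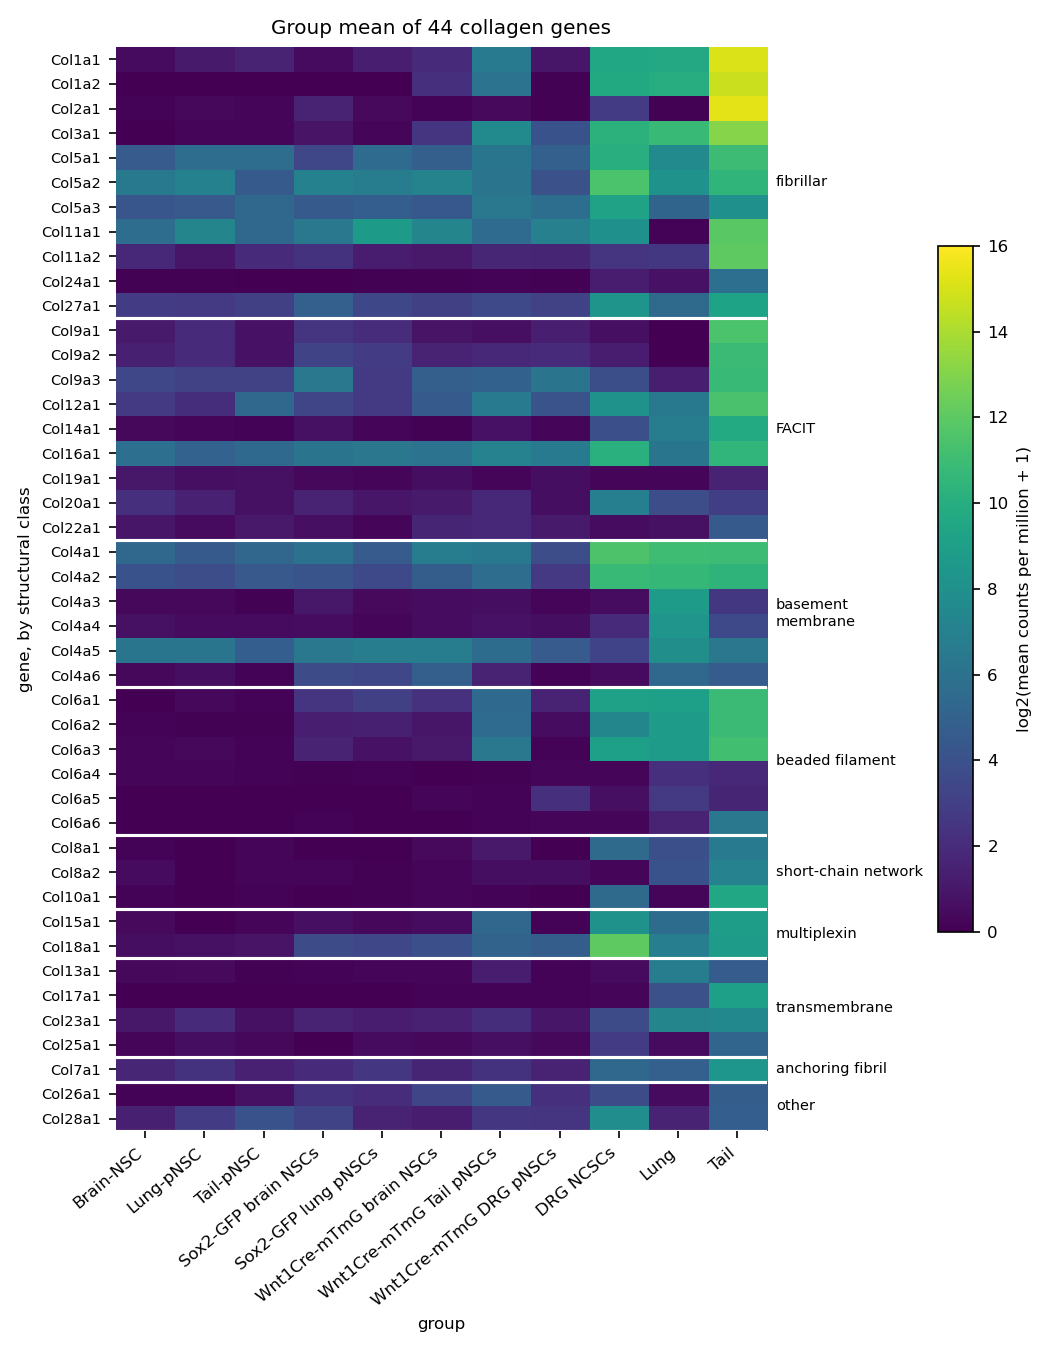
Mean level of each of the 44 collagen genes (rows, ordered by class) in the 11 groups (columns), as log2(mean cpm + 1). Rows are to be read across groups, since cpm is not divided by gene length. They show the 6 genes at a mean of at least 10 cpm in all 8 brain NSC and pNSC groups. Beside them are the many that are high in Tail, Lung or DRG NCSCs and low or near 0 elsewhere.

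Tail pNSCs were compared with brain NSCs in 2 mouse lines, which address whether a line from the tail differs from brain NSCs in its matrix genes. In the Nes-GFP line, Tail-pNSC had more RNA of Col12a1, Col5a1, Col5a3, Col1a1 and Col28a1 than Brain-NSC and less of Col5a2, Col4a5 and Col20a1. A gene was called at an adjusted p below 0.05 (Benjamini-Hochberg over all genes of the fit, edgeR's quasi-likelihood test) and a log2 fold change of at least 1 in size. All 44 genes passed the filter on low counts, 7 were called higher and 5 lower, where 10.9% of all 16948 genes tested were called (4.31% higher and 6.59% lower). The members' median log2 fold change was -0.31, and that of all genes was 0.

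Col12a1 (chr9:79598991-79718831, minus strand) was at 5.78 and 5.26 cpm in the Brain-NSC samples and at 40.7 and 41.8 cpm in Tail-pNSC. The Tail-pNSC samples were several times above both controls, with a log2 fold change of 2.90 ± 0.074 (SE; edgeR adjusted p = 7.66e-263). Col5a1 (chr2:27886425-28039514, plus strand), a chain of the type V collagen that sets fibril diameter, was at 24.6 and 20.9 cpm in Brain-NSC and 51.99 and 52.9 cpm in Tail-pNSC, and its sister chain Col5a3 (chr9:20770050-20815067, minus strand) at 16.8 and 20.6 and 43.5 and 40.3 cpm. Neither pair of groups overlapped, and the log2 fold changes were 1.21 ± 0.055 (edgeR adjusted p = 1.04e-102) and 1.16 ± 0.071 (edgeR adjusted p = 1.19e-58). The third type V chain moved the other way. Col5a2 (chr1:45374321-45503282, minus strand) was at 89.3 and 89.7 cpm in Brain-NSC and at 22.6 and 22.5 cpm in Tail-pNSC, a log2 fold change of -1.99 ± 0.052.

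Col28a1 (chr6:7997808-8192617, minus strand), a short collagen known from peripheral nerve, was at 1.78 and 1.46 cpm in Brain-NSC and 13.5 and 16.7 cpm in Tail-pNSC, with a log2 fold change of 3.23 ± 0.18 (edgeR adjusted p = 1.63e-72). It was the one collagen gene that did not pass the thresholds between Tail-pNSC and Tail, where it stood at 27.5 and 24.8 cpm (-0.87 ± 0.11; -1.04 and past the thresholds without Tail-pNSC replicate 2). Col1a1, at a far lower level, also rose in Tail-pNSC, with a log2 fold change of 2.39 ± 0.18 (edgeR adjusted p = 3.53e-11), and Col26a1 by 2.68 ± 0.70 (edgeR adjusted p = 0.000371) from 0 and 0.195 to 0.800 and 0.558 cpm, an estimate that moved to 1.75 without Brain-NSC replicate 1 and 6.61 without replicate 2. The call of Col3a1, the type III fibril chain, rested on few counts (0 and 0.0487 cpm against 0.286 and 0.101 cpm) and was lost without Brain-NSC replicate 1 or Tail-pNSC replicate 1, at log2 fold changes of 1.81 and 1.77, and with DESeq2. Among the genes that fell, the FACIT gene Col20a1 was at 3.40 and 3.90 cpm in Brain-NSC and 0.686 and 0.659 cpm in Tail-pNSC (-2.43 ± 0.31; edgeR adjusted p = 1.73e-14). Col9a2, a type IX chain, fell by less (-1.27 ± 0.27; edgeR adjusted p = 0.000173; -0.97 without Tail-pNSC replicate 1), and the call of Col4a3 (log2 fold change -1.80, at few counts) was lost with DESeq2, without a filter, with a replicate block and without Brain-NSC replicate 2 (-1.26) or Tail-pNSC replicate 1 (-0.94). The 8 fibroblast markers examined summed to 42.4 to 45.3 cpm in Brain-NSC and 118 to 123 cpm in Tail-pNSC, most of it Fbln1 and Prrx1. Of the 8, 4 were called higher in Tail-pNSC, namely Fbln1 (1.32 ± 0.054), Prrx1 (2.06 ± 0.10), Twist1 (1.13 ± 0.38) and Lum, the last at few counts, from 0 in Brain-NSC to a mean of 0.212 cpm. Dcn and Pdgfrb were at or below 3 counts in every sample of both groups. Their part in the collagen values was not tested.

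In the Wnt1Cre-mTmG line the tail pNSCs had more RNA than brain NSCs of 21 members, among them genes of types I, III and VI. Col1a1, Col1a2, Col3a1, Col6a1, Col6a2, Col6a3 and the multiplexin gene Col15a1 were at 4.74 cpm or less in every brain NSC sample and at 36.2 cpm or more in every Tail pNSC sample. Of the 38 members tested (Col17a1, Col19a1, Col4a3, Col6a4, Col6a6 and Col8a2 did not pass the filter), 21 were called higher and 3 lower, against 18.2% of all 14448 genes called (9.16% higher and 9.05% lower). The members' median log2 fold change was 1.04 and that of all genes was 0.00.

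Col1a1 (chr11:94936224-94953042, plus strand) was at 3.04, 2.90 and 2.53 cpm in the 3 Wnt1Cre-mTmG brain NSC samples and at 105, 102 and 98.6 cpm in the Tail pNSCs, a log2 fold change of 5.17 ± 0.17 (edgeR adjusted p = 4.58e-14). Col1a2 (chr6:4504814-4541544, plus strand), its partner in the type I molecule, went from 3.66, 3.39 and 3.30 cpm to 66.3, 68.4 and 66.7 cpm (4.28 ± 0.13; edgeR adjusted p = 1.35e-14), and Col3a1 (chr1:45311538-45349706, plus strand) from 4.38, 4.74 and 3.46 cpm to 194, 190.2 and 188 cpm (5.52 ± 0.10; edgeR adjusted p = 2.05e-17). The 3 Tail pNSC samples lay within a few percent of each other for each gene and far above every brain NSC sample. The type VI chains are known to assemble from alpha1, alpha2 and alpha3 together, and all 3 genes rose. Col6a1 (chr10:76708792-76726168, minus strand) went from 3.48, 3.58 and 4.48 cpm to 43.9, 41.5 and 42.5 cpm (3.47 ± 0.083), and Col6a2 (chr10:76595762-76623630, minus strand) from 0.536, 1.45 and 0.760 cpm to 46.9, 46.8 and 46.99 cpm (5.70 ± 0.16). Col6a3 (chr1:90765923-90843971, minus strand) went from 0.893, 1.06 and 1.44 cpm to 83.4, 82.6 and 85.4 cpm (6.20 ± 0.11; edgeR adjusted p = 1.91e-17). In the Nes-GFP line the same 3 genes were near the detection limit in Tail-pNSC, Col6a3 at 0.171 and 0.0507 cpm.

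The largest log2 fold change among the members of this comparison was that of Col15a1 (chr4:47208161-47313167, plus strand), which was at 0.268, 0.484 and 0.591 cpm in the brain NSCs and 37.4, 36.2 and 38.04 cpm in the Tail pNSCs (6.35 ± 0.12; edgeR adjusted p = 2.82e-17). Col18a1 (chr10:77052178-77166548, minus strand), the other multiplexin and the source of the fragment endostatin, went from 13.04, 13.9 and 14.6 to 33.2, 35.7 and 31.4 cpm (1.27 ± 0.069). Col12a1 stood at 20.6, 21.4 and 23.7 cpm and 101, 104 and 101 cpm (2.22 ± 0.077), and Col5a3 at 21.6, 19.9 and 19.6 cpm and 84.97, 80.7 and 82.7 cpm (2.03 ± 0.069). Rises were also called for Col5a1, Col28a1, Col26a1, Col8a1, Col13a1, Col14a1, Col25a1, Col4a2, Col16a1, Col11a2 and Col20a1, with log2 fold changes from 1.01 to 2.95. Those of Col4a2 and Col16a1, at 1.05 and 1.03, came to 0.97 and 0.98 without brain NSC replicate 2 and 3, respectively, and those of Col11a2 and Col20a1, at 1.02 and 1.01, to 0.87 and 0.84 without brain NSC replicate 1 and to 0.94 and 0.90 without Tail pNSC replicate 1. Col20a1 also lost its call without brain NSC replicate 2 (0.89) and Col25a1 without replicate 3 (edgeR adjusted p = 0.0826). Col13a1, Col8a1 and Col14a1 had few counts in the brain NSCs, and their log2 fold changes of 2.43, 1.78 and 2.95 became 3.22 and 3.02 without brain NSC replicate 1 and 6.61 without replicate 3. Lower in the Tail pNSCs were Col11a1, from 151, 156 and 156 to 49.3, 49.3 and 46.5 cpm (-1.67 ± 0.049; edgeR adjusted p = 6.74e-15), Col4a5 and Col4a6. Fibroblast markers moved in the same direction: they summed to 65.3 to 70.9 cpm in the brain NSCs and 279 to 283 cpm in the Tail pNSCs, where 7 of 8 were above 3 counts in every sample and Tcf21 was at 0. Of the 7 markers tested, 5 were called higher, among them Postn at 2.81 and 94.03 cpm and Dcn at 0.503 and 9.63 cpm (means). Their part in the collagen values was not tested. Among the neural crest and Schwann cell markers, Sox10 was called lower (-1.01 ± 0.17) and Ngfr higher (2.70 ± 0.20, from a mean of 0.539 to 3.54 cpm).

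**Figure D3:**
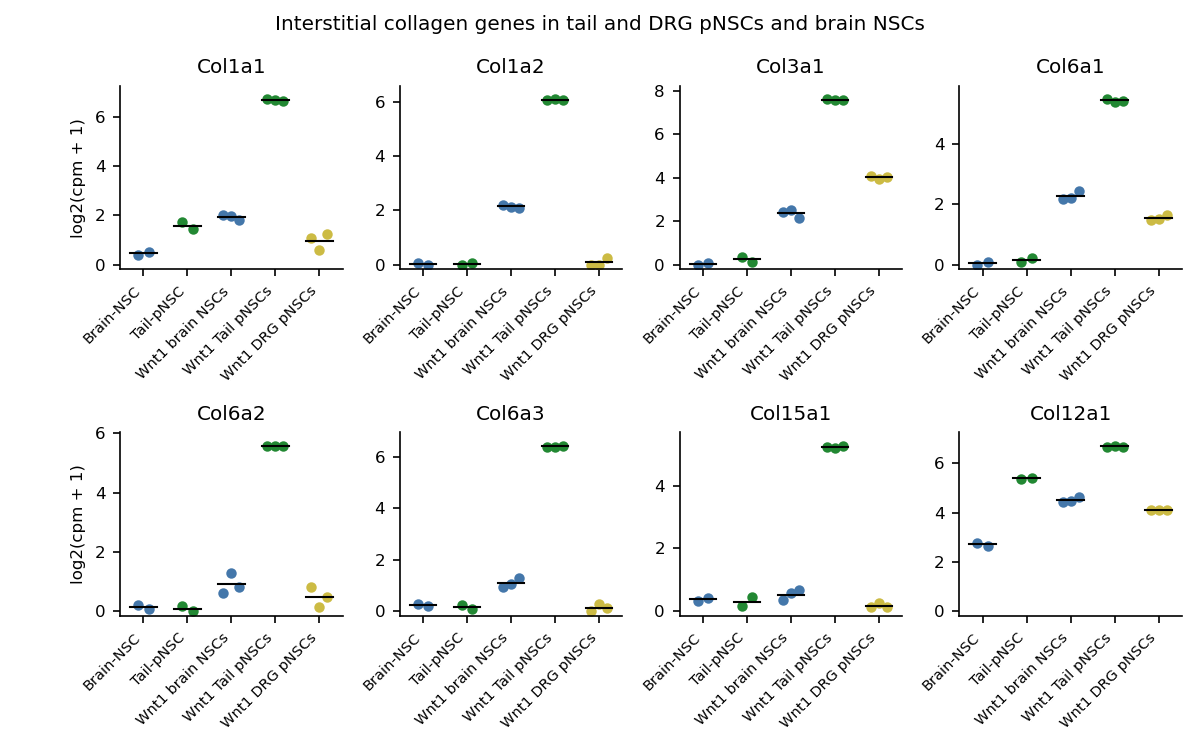
Levels of Col1a1, Col1a2, Col3a1, Col6a1, Col6a2, Col6a3, Col15a1 and Col12a1 as log2(cpm + 1), 1 point per sample with a line at the mean, in Brain-NSC, Tail-pNSC, Wnt1Cre-mTmG brain NSCs, Wnt1Cre-mTmG Tail pNSCs and Wnt1Cre-mTmG DRG pNSCs. The y-axes differ between panels. In all 8 panels the 3 Wnt1Cre-mTmG Tail pNSC samples sit above every other sample, and in the Nes-GFP line Col12a1 alone of the 8 genes is above 10 cpm.

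Of the 38 members tested in both lines, 11 were called in the Nes-GFP tail comparison and 24 in the Wnt1Cre-mTmG one, and 9 were called in both, which is 81.8% of the first and 37.5% of the second. The overlap over all genes was not counted, so whether these shares are particular to collagen genes is not known. Those higher in both were Col1a1, Col3a1, Col5a1, Col5a3, Col12a1, Col26a1 and Col28a1, Col4a5 was lower in both, and Col20a1 had opposite signs. The calls of Col3a1 in the Nes-GFP line and of Col20a1 in the Wnt1Cre-mTmG line were lost with single samples left out, as given above. These 2 comparisons share no sample. The difference between the tail effects was tested as an interaction term over all 28 samples, and the Wnt1Cre-mTmG effect minus the Nes-GFP effect was called positive for 13 members and negative for 2, where 16.0% of all 17393 genes tested were called (8.96% higher and 7.05% lower). For Col6a3 the difference of the log2 fold changes was 6.85 ± 0.99 (SE; edgeR adjusted p = 2.46e-07), for Col15a1 6.64 ± 0.65 (edgeR adjusted p = 5.77e-11) and for Col6a2 6.50 ± 1.43 (edgeR adjusted p = 0.00021). That of Col6a2 was lost without Brain-NSC replicate 1 and that of Col1a1, 2.78 ± 0.71, without Brain-NSC replicate 2, with edgeR adjusted p of 0.0784 and 0.0559. Genes with ample counts in all 4 groups also differed, Col16a1 by 1.43 ± 0.11, Col5a2, which fell less in the Wnt1Cre-mTmG line, by 1.02 ± 0.088 (0.98 without Wnt1Cre-mTmG Tail pNSC replicate 1) and Col11a1 by -1.34 ± 0.078. Mouse line and sorting differed together between the 2 experiments and cannot be told apart, nor can any difference of batch, which is not given in the sources used here.

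The DRG pNSCs of the Wnt1Cre-mTmG line were poorer in collagen RNA than the brain NSCs of that line, and 4 of the 5 type IV genes tested, together with Col5a2, were called lower. Of the 38 members, 5 were called higher and 13 lower, against 9.53% of all genes called (3.12% higher and 6.41% lower). Col5a2 was at 142, 136 and 139.8 cpm in the brain NSCs and 12.96, 14.97 and 16.8 cpm in the DRG pNSCs, with no overlap and a log2 fold change of -3.23 ± 0.085 (edgeR adjusted p = 6.93e-15). Col1a2 and Col6a3, which had risen in the Tail pNSCs, were at 0, 0 and 0.192 and 0, 0.197 and 0.0962 cpm, at most 2 reads per library, and their count ratios to the brain NSCs were 0.0179 (95% counting interval 0.00215 to 0.0663) and 0.0814 (0.0161 to 0.257). Col3a1 moved the other way: the DRG pNSCs held 15.7, 14.4 and 15.3 cpm against 4.38, 4.74 and 3.46 cpm in the brain NSCs (1.86 ± 0.15; edgeR adjusted p = 1.7e-08), with Col1a1 lower at 1.10, 0.493 and 1.35 cpm (-1.50 ± 0.46; edgeR adjusted p = 0.0124). Col9a3 was at 27.1, 27.95 and 26.4 cpm and 67.1, 72.1 and 69.3 cpm (1.35 ± 0.088), and Col5a3 at 21.6, 19.9 and 19.6 cpm and 53.8, 55.9 and 52.99 cpm (1.41 ± 0.075), both higher in every DRG pNSC sample. Col6a5, a type VI chain under 10 cpm in every group, was at 0.179, 0.387 and 0.0845 cpm in the brain NSCs and 2.80, 4.04 and 3.85 cpm in the DRG pNSCs (4.02 ± 0.50; edgeR adjusted p = 3.86e-06). Other members called were Col28a1, higher by 1.55 ± 0.18, and Col26a1, lower by -1.34 ± 0.14. Col6a1 (-1.01 ± 0.17), Col20a1 (-1.36 ± 0.41), Col15a1 and Col8a1 were called lower at means of 3.85, 1.18, 0.448 and 0.323 cpm in the brain NSCs and 1.92, 0.479, 0.126 and 0 cpm in the DRG pNSCs, and each lost its call when 1 sample was left out. These samples were DRG pNSC replicate 1 or 2 or brain NSC replicate 3 for Col6a1 (-0.95, -0.99 and -0.88), DRG pNSC replicate 1 or brain NSC replicate 3 for Col20a1 (-0.91 and -0.99), DRG pNSC replicate 1 or 3 or brain NSC replicate 2 or 3 for Col15a1 (edgeR adjusted p = 0.101, 0.0779, 0.0586 and 0.127) and brain NSC replicate 1 for Col8a1 (edgeR adjusted p = 0.0808).

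Fibroblast markers summed to 57.1 to 61.1 cpm in the DRG pNSCs, with 2 of 8 above 3 counts in every sample, and Fbln1 made up most of the sum. Of the 7 markers tested, 5 were called lower than in the brain NSCs (Dcn, Pdgfrb, Postn, Prrx1 and Twist1), Prrx1 by -1.45 ± 0.13 and Twist1 from a mean of 7.58 to 0.0939 cpm. Their part in the collagen values was not tested.

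DRG NCSCs, the neural crest reference, had a collagen profile far from both kinds of pNSC. Against the Wnt1Cre-mTmG brain NSCs, 28 members were called higher and 4 lower, where 36.9% of all genes were called (22.1% higher and 14.8% lower). Col18a1 was at 4086, 4242 and 4103 cpm in the NCSCs (8.23 ± 0.065 against the brain NSCs; edgeR adjusted p = 8.51e-23), and Col28a1, with 224, 230.0 and 227 cpm, was at a level that no other group approached. The Tail pNSCs were lower than the NCSCs in 29 members and higher in 5 (background 37.9%, with 22.6% lower and 15.3% higher), and the DRG pNSCs lower in 32 and higher in 6 (background 38.3%, with 23.3% lower and 15.1% higher). Col4a5 and Col9a3 were higher in pNSCs of both tissues: Col4a5 by 2.57 ± 0.065 in Tail pNSCs and 1.44 ± 0.076 in those of DRG, and Col9a3 by 1.20 ± 0.091 and 2.41 ± 0.090 on the log2 scale. Even Col15a1, raised in the Tail pNSCs, stood -3.03 on the log2 scale from the NCSCs. These 3 comparisons share the NCSC samples and the 2 against brain NSCs share those. DRG NCSCs carried 3 of the 5 NSC markers above 3 counts in every sample, with the neural crest and Schwann cell markers Sox10 at 792 cpm and Ngfr at 1208 cpm (means). Fibroblast markers summed to 4057 to 4637 cpm, of 7 tested 5 were called higher than in the brain NSCs, and Postn stood at 3988 against 2.81 cpm and Pdgfrb at 141 against 0.544 cpm (means). Leukocyte markers summed to 74.03 to 82.6 against 1.88 to 2.71 cpm and endothelial markers to 23.3 to 28.7 against 3.00 to 3.39 cpm. The part of these cells in the collagen values was not tested. Leaving out their replicate 3, the library that stood apart, lost 1 member call, that of Col11a2 against the DRG pNSCs.

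Lung pNSCs were compared with brain NSCs in the Nes-GFP and Sox2-GFP lines, and in both the fibrillar chains Col11a1, Col5a1 and Col1a1 were higher. In the Nes-GFP line 7 members were called higher and 5 lower of 44 (background 8.71% of all genes, 4.56% higher and 4.15% lower), with a median log2 fold change of -0.07. In the Sox2-GFP line 3 were called higher and 14 lower of the 41 tested, all but Col10a1, Col19a1 and Col25a1 (background 15.7%, 5.76% higher and 9.99% lower), with a median of -0.50. The median of all genes was 0 in both.

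Col11a1 (chr3:114030540-114220718, plus strand), a chain of the type XI collagen that nucleates cartilage fibrils, was at 54.3 and 48.6 cpm in Brain-NSC and 154 and 149.8 cpm in Lung-pNSC, a log2 fold change of 1.55 ± 0.039 (SE). In the Sox2-GFP line it was at 84.2, 83.7 and 83.8 cpm in the brain NSCs and 426, 427 and 430.4 cpm in the lung pNSCs, a log2 fold change of 2.35 ± 0.025 (SE). Every lung pNSC sample was above every brain NSC sample of its line, and Sox2-GFP lung pNSCs held the most of it among the 8 brain NSC and pNSC groups. In Lung it was nearly absent, at 0 and 0.187 cpm. Col5a1, whose product is known to assemble with type XI chains as well as with type V chains, was at 24.6 and 20.9 cpm and 54.3 and 48.9 cpm in the Nes-GFP line (1.18 ± 0.055; edgeR adjusted p = 2.71e-99) and at 8.59, 9.56 and 10.6 cpm and 46.3, 46.6 and 46.04 cpm in the Sox2-GFP line (2.27 ± 0.060). Col1a1 was called higher in both lines at low levels, in the Sox2-GFP line from 0.461, 0.259 and 0.402 cpm to 1.48, 1.67 and 1.33 cpm (2.02 ± 0.29; edgeR adjusted p = 6.5e-11), while Col1a2 stayed at 0.0507 cpm or less in every sample of these 4 groups.

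Other members of the lung comparisons differed by line. Col9a3 (chr2:180597790-180622189, plus strand) was at 87.8, 84.2 and 84.6 cpm in Sox2-GFP brain NSCs and 5.79, 5.34 and 5.95 cpm in the lung pNSCs of that line (-3.91 ± 0.061), whereas the Nes-GFP line had 9.43 and 10.03 cpm in Brain-NSC and 7.68 and 7.09 cpm in Lung-pNSC. The brain NSCs of the 2 lines were further apart than the lung pNSCs, a difference between experiments that was not tested. Col28a1 was called in both lines with opposite signs: it was at 1.78 and 1.46 cpm and 5.64 and 6.64 cpm in the Nes-GFP line (1.91 ± 0.21; edgeR adjusted p = 2.92e-18), and at 9.57, 7.70 and 8.83 cpm and 2.44, 2.14 and 1.64 cpm in the Sox2-GFP line (-2.06 ± 0.14; edgeR adjusted p = 1.73e-46). Col27a1, a fibrillar gene of developing cartilage, fell in the Sox2-GFP line from 28.8, 30.5 and 29.1 cpm to 11.01, 10.5 and 9.19 cpm (-1.53 ± 0.068; edgeR adjusted p = 2.49e-109), and Col4a1 from 62.2, 63.4 and 62.7 cpm to 22.7, 24.3 and 22.8 cpm (-1.43 ± 0.041). At 4 cpm or less in every sample, Col9a1 and Col23a1 were called higher in Lung-pNSC and Col20a1, Col22a1 and Col11a2 lower, and in the Sox2-GFP line Col2a1, Col3a1, Col6a3 and Col14a1 were called lower. Of these, Col9a1 and Col11a2 fell short without Lung-pNSC replicate 1 (0.86 and -0.96), Col20a1 without that sample or Brain-NSC replicate 2 (-0.99 and -0.97) and Col22a1 without Lung-pNSC replicate 2 or Brain-NSC replicate 2 (-0.93 and -0.98), while Col14a1 moved from -1.60 to -2.37 without Sox2-GFP lung pNSC replicate 2. At under 1 cpm, Col6a1 was called higher in Lung-pNSC (0 and 0.0487 against 0.237 and 0.335 cpm), a call lost with DESeq2 and without Brain-NSC replicate 1 (edgeR adjusted p = 0.0905). Col8a2 was called lower in both lines, from means of 0.373 to 0.0279 cpm and of 0.221 to 0.0467 cpm. It lost its call without Lung-pNSC replicate 1 (edgeR adjusted p = 0.062) and, in the Sox2-GFP line, without brain NSC replicate 2 or lung pNSC replicate 2 (edgeR adjusted p = 0.0551 and 0.0822). In the Sox2-GFP line Col4a3 (-1.58 ± 0.32), Col4a4 (-1.20 ± 0.47) and Col15a1 (-1.10 ± 0.43) were called lower as well. Without brain NSC replicate 1 or lung pNSC replicate 2 the call of Col4a4 was lost (edgeR adjusted p = 0.0701 and 0.181), and without brain NSC replicate 2 or lung pNSC replicate 3 that of Col15a1 (-0.97 and -0.99). Col15a1 had 0 counts in both Lung-pNSC samples, at least 1.78-fold lower than Brain-NSC when 3 counts per library are taken as the floor.

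**Figure D4:**
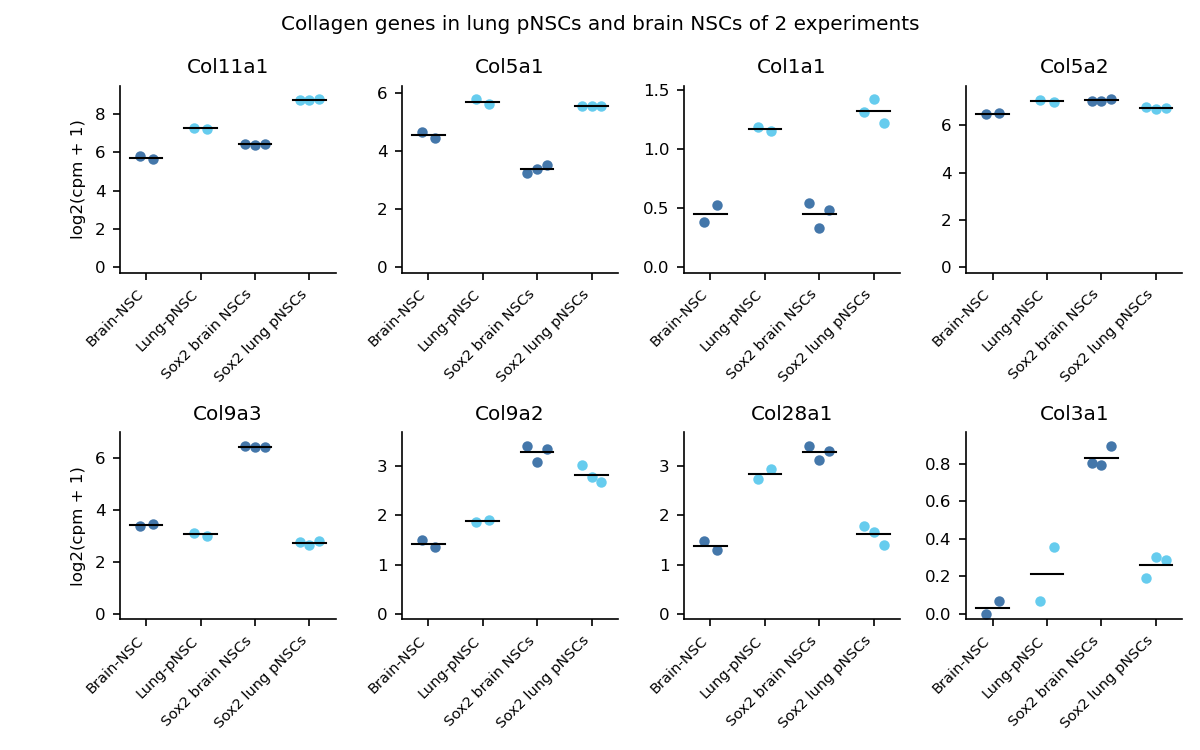
Levels of Col11a1, Col5a1, Col1a1, Col5a2, Col9a3, Col9a2, Col28a1 and Col3a1 as log2(cpm + 1), 1 point per sample with a line at the mean, in Brain-NSC, Lung-pNSC, Sox2-GFP brain NSCs and Sox2-GFP lung pNSCs. The y-axes differ between panels. Col11a1, Col5a1 and Col1a1 are higher in the lung pNSCs of both lines, whereas Col28a1 is higher in Lung-pNSC and lower in Sox2-GFP lung pNSCs than in the brain NSCs of the same line.

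Among the 41 members tested in both lines, 12 and 17 were called and 8 were called in both, 66.7% of the first list and 47.1% of the second. Here too the overlap over all genes was not counted. Col11a1, Col1a1 and Col5a1 were higher in both, Col11a2, Col15a1, Col22a1 and Col8a2 lower in both, and Col28a1 had opposite signs. Each of the 4 shared lower calls was lost in at least 1 line with 1 sample left out. In the interaction test, the Sox2-GFP effect minus the Nes-GFP effect was called positive for 3 members and negative for 10, where 14.1% of all genes were called (5.89% higher and 8.24% lower). The 2 with the smallest p were Col9a3, with a difference of -3.51 ± 0.15 (SE; edgeR adjusted p = 7.31e-21), and Col28a1, with -3.97 ± 0.24 (edgeR adjusted p = 6.46e-17). Age at derivation and mouse line differed together between the 2 lung comparisons and cannot be told apart. Fibroblast markers summed to 74.1 to 79.3 cpm in Lung-pNSC, 89.9 to 97.9 cpm in Sox2-GFP brain NSCs and 127 to 133 cpm in Sox2-GFP lung pNSCs, with Dcn and Lum at or below 3 counts in every one of these samples. Of the 8 markers, 3 were called higher in Lung-pNSC than in Brain-NSC, namely Twist1 (2.86 ± 0.29), Prrx1 (1.26 ± 0.11) and Postn. The call of Postn, from 0 to a mean of 0.155 cpm, rested on 3 counts or fewer in every sample of both groups. In the Sox2-GFP line 1 was called higher, Twist1 (1.74 ± 0.11). Their part in the collagen values was not tested.

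Between pNSCs and cells of tail or lung tissue, most of the family was lower in the pNSCs. In Tail-pNSC, 43 of 44 members were called lower than in Tail (background 46.7% of all genes, 14.1% higher and 32.6% lower), with a median log2 fold change of -7.88 against -0.16 for all genes, a scaling offset that was -0.21 with relative log expression scaling and -0.11 with upper-quartile scaling. The most abundant cartilage gene, Col2a1, was at 42750.2 and 41625 cpm in Tail, and the ratio of Tail-pNSC to Tail cpm for it was 3.82e-06 (95% counting interval 1.40e-06 to 8.31e-06). Col17a1, the transmembrane collagen of hemidesmosomes, was at least 3046-fold lower. The smallest called changes were those of Col4a5 (-1.73 ± 0.058), Col19a1 and Col5a3 (-2.72 ± 0.050). In Tail, cartilage markers summed to 5227 to 5334 cpm, bone markers to 139.8 to 142 cpm and epithelial markers to 4168 to 4266 cpm, whereas cartilage markers were below 2 cpm in every other group.

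In Lung-pNSC, 34 members were called lower than in Lung and 6 higher (background 55.0% of all genes, 34.9% lower and 20.2% higher), and in Sox2-GFP lung pNSCs, against the same 2 Lung samples, 32 of 41 lower and 6 higher (background 56.3%, 34.9% lower and 21.3% higher). The medians were -4.40 and -3.95 against -0.15 and -0.12 for all genes. The Lung samples belong to the first experiment and their age is not settled. For the Sox2-GFP line the contrast thus also spans 2 experiments, and Lung is not shown to be its source tissue. Among the 6 higher in Lung-pNSC were Col11a1, with a count ratio of 1746 to Lung (95% counting interval 597 to 8470.3), and the 3 type IX genes. Col9a1, at 0 in both Lung samples, was at least 14.6-fold higher in Lung-pNSC, and Col9a3 was higher by 2.2 ± 0.16 on the log2 scale (edgeR adjusted p = 8.82e-33). Col28a1 was higher by 1.51 ± 0.21 (edgeR adjusted p = 6.8e-13). The calls of Col19a1 and, among the lower ones, Col10a1 were lost without Lung replicate 2 or Lung-pNSC replicate 2, and that of Col26a1 without Lung replicate 2 or Lung-pNSC replicate 1. Their log2 fold changes were then 1.26 and 1.63 for Col19a1 (1.81 over all samples), -1.86 and -1.98 for Col10a1 (-2.72) and -0.11 and -1.17 for Col26a1 (-1.85). In Sox2-GFP lung pNSCs, Col11a1, Col9a1, Col9a2 and Col9a3 were also among the 6 higher, with Col26a1 (3.01 ± 0.33, and 4.75 without Lung replicate 2) and Col2a1, the last at few counts and lost without either Lung sample. At the other end Col1a2, at 0 in both Lung-pNSC samples, was at least 5924-fold lower than in Lung and Col15a1 at least 291-fold lower. The 2 tissues themselves differed in most of the family: Tail was higher than Lung in 33 members and lower in 5 (background 43.4%, 20.5% higher and 22.9% lower), the 5 being Col4a3, Col4a4, Col4a5, Col13a1 and Col6a5.

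The 6 type IV genes lie as 3 head-to-head pairs. In GRCm38, Col4a1 (chr8:11198423-11312826, minus strand) and Col4a2 (chr8:11312805-11449287, plus strand) start 21 bp apart on opposite strands, Col4a4 and Col4a3 72 bp apart, and Col4a6 (chrX:141165403-141474076, minus strand) and Col4a5 (chrX:141475385-141689234, plus strand) 1309 bp apart. Promoters of RefSeq, 250 bases before to 50 after a gene's start in GRCm38.p6, matched 35 of the 44 genes with 38 windows. The letters GGGCGG, the core of a GC box that Sp1 family factors bind, were found on either strand in 23 of the 38 collagen windows (60.5%), against 35.7% of 32851 windows of all genes. The collagen windows were also richer in G and C, with a median GC content of 59.8% against 52.7%, and the motif share was not corrected for it. CCAAT, the box bound by NF-Y, was found in 13 (34.2%, against 37.4% of all), TATAAA in 5 (13.2%, against 13.6%) and the palindromic E-box CACGTG in 0 of 38 (7.15% of all). Each motif was searched on both strands, no motif contains another, and a match is a description of the letters, not a site. The windows of the 2 chromosome 8 and 2 chromosome X genes are printed because these genes lie head to head and differ in the data below. That of the fibrillar gene Col11a1 is printed because it separated lung pNSCs from brain NSCs in both lines. That of the fibrillar gene Col3a1 is printed because it separated Wnt1Cre-mTmG Tail pNSCs from the brain NSCs of that line. Capitals mark a GC box, CCAAT or TATAAA on either strand. The Col4a1 window is chr8:11312777-11313076 (minus strand), that of Col4a2 chr8:11312555-11312854 (plus), that of Col4a5 chrX:141475169-141475468 (plus), that of Col4a6 chrX:141474027-141474326 (minus), that of Col11a1 chr3:114030290-114030589 (plus) and that of Col3a1 chr1:45311288-45311587 (plus). The first 2 share 78 bases, read in opposite directions. The 2 chromosome X windows do not overlap and leave part of the sequence between those genes unprinted.
Col4a1: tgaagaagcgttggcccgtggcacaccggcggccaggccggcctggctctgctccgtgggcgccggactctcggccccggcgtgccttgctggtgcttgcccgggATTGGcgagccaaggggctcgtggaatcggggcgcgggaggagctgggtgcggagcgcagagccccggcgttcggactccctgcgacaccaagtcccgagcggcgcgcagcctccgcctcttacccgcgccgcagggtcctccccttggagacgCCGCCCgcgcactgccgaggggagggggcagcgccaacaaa
Col4a2: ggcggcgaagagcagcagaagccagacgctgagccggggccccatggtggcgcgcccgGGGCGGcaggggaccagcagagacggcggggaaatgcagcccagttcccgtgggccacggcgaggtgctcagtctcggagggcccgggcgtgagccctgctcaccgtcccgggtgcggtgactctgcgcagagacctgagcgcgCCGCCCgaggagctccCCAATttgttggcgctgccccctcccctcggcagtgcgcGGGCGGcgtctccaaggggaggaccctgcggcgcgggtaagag
Col4a5: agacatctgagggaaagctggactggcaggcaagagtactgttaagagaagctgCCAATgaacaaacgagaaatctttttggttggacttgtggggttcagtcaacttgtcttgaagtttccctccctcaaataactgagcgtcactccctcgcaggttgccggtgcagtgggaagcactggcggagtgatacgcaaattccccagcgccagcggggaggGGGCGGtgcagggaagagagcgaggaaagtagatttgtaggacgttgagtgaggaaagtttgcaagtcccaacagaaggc
Col4a6: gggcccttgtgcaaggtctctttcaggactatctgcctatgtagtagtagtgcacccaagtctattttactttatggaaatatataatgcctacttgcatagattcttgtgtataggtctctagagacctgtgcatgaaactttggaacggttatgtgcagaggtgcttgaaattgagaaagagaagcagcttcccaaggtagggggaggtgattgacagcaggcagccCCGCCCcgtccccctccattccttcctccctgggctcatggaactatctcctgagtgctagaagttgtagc
Col11a1: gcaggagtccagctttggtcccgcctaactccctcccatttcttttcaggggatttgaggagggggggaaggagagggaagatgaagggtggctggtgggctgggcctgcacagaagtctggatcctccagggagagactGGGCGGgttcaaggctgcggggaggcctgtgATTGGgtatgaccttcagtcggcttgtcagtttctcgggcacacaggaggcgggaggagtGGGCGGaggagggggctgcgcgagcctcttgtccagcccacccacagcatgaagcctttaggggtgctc
Col3a1: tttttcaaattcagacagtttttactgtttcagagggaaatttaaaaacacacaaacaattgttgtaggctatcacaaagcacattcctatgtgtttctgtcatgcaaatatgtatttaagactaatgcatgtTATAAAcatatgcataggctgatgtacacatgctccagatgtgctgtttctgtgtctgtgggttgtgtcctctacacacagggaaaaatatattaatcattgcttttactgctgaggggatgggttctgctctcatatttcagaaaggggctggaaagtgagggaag

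Col4a1 and Col4a2, whose products form the heterotrimer of nearly all basement membranes, were present in every group. Across the 11 group means their log2 levels had a Pearson r of 0.988, and of 0.871 across the 8 brain NSC and pNSC groups, which share the same libraries and scaling for both genes. The ratio of Col4a1 to Col4a2 per length still differed between groups: it was 2.49 ± 0.0252 in Brain-NSC (SD, n = 2), 1.59 ± 0.0478 in Tail-pNSC and 1.55 ± 0.215 in Lung-pNSC. In the Wnt1Cre-mTmG line it was 3.87 ± 0.499 in brain NSCs and 1.49 ± 0.102 in Tail pNSCs (n = 3 each), and in the Sox2-GFP line 3.37 ± 0.369 in brain NSCs and 2.00 ± 0.271 in lung pNSCs. In each of these comparisons the brain NSCs had the higher ratio, with no overlap in mean and SD, although no test of the ratio was run. In the Wnt1Cre-mTmG Tail pNSCs Col4a1 was at 86.8, 85.4 and 91.4 cpm, near the 107, 112 and 109 cpm of the brain NSCs, and Col4a2 at 52.01, 54.3 and 50.8 against 25.6, 22.4 and 27.8 cpm (1.05 ± 0.091). The DRG pNSCs had less of both, with Col4a1 at 13.4, 13.9 and 10.8 cpm (-3.11 ± 0.068; edgeR adjusted p = 9.21e-16) and Col4a2 at 3.98, 4.43 and 7.41 cpm (-2.28 ± 0.15; edgeR adjusted p = 9.06e-10).

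Col4a5 was at least 22.8 cpm in every one of the 8 brain NSC and pNSC groups and was lower in the pNSCs of tail and DRG than in brain NSCs. It stood at 70.3 and 76.6 cpm in Brain-NSC and 26.9 and 24.99 cpm in Tail-pNSC (-1.50 ± 0.058; edgeR adjusted p = 1.33e-145). In the Wnt1Cre-mTmG line it was at 111, 101 and 107 cpm in the brain NSCs and at 49.6, 49.5 and 50.2 cpm in the Tail pNSCs (-1.09 ± 0.051; edgeR adjusted p = 4.25e-12) and 23.6, 21.2 and 23.7 cpm in the DRG pNSCs (-2.22 ± 0.060; edgeR adjusted p = 1.05e-14). None of these groups overlapped with their brain NSCs. In lung pNSCs it was not called in either line, with 73.99 and 70.5 cpm in Lung-pNSC and 104, 103 and 104 cpm in Sox2-GFP lung pNSCs. DRG NCSCs held only 7.87, 8.75 and 8.45 cpm.

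Its neighbour Col4a6, 1309 bp away, behaved differently between the brain NSCs of the 3 lines. It was at 26.5, 27.3 and 27.7 cpm in Wnt1Cre-mTmG brain NSCs and 12.4, 11.9 and 10.96 cpm in Sox2-GFP brain NSCs, but at 0.203 and 0.341 cpm in Brain-NSC, a difference between experiments that was not tested. Within the Wnt1Cre-mTmG line it fell to 2.58, 1.66 and 1.86 cpm in the Tail pNSCs (-3.72 ± 0.15; edgeR adjusted p = 7.47e-13). In the DRG pNSCs it was at 0.169, 0 and 0.192 cpm, a count ratio of 0.00455 to the brain NSCs (95% counting interval 0.00124 to 0.0117). The ratio of Col4a5 to Col4a6 per length was 4.65 ± 0.298 in the brain NSCs and 30.1 ± 6.56 in the Tail pNSCs of that line. Col4a3 and Col4a4, the chains of the alveolar and kidney basement membranes, were at 437 and 441 and 323 and 319 cpm in Lung, at 5.56 and 4.47 and 10.1 and 10.7 cpm in Tail and at 1.15 cpm or less in every brain NSC and pNSC sample.

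**Figure D5:**
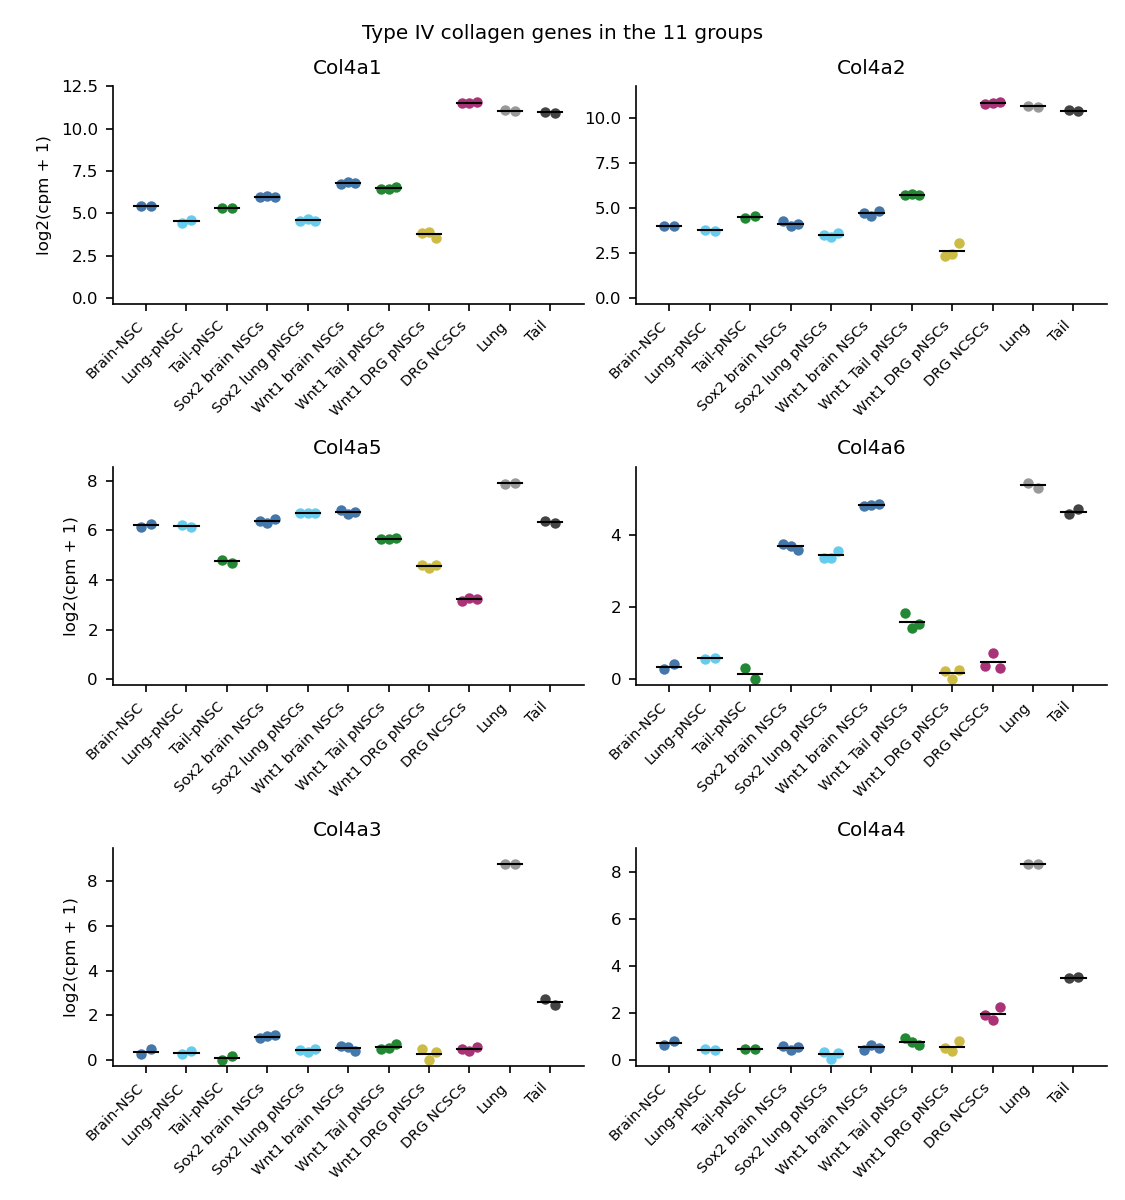
Levels of the 6 type IV genes as log2(cpm + 1) in the 11 groups, 1 point per sample with a line at the group mean. Panels are Col4a1, Col4a2, Col4a5, Col4a6, Col4a3 and Col4a4, with separate y-axes. Col4a1, Col4a2 and Col4a5 are present in all groups, Col4a6 is low in the Nes-GFP lines, DRG pNSCs and DRG NCSCs, and Col4a3 and Col4a4 are high in Lung and near 0 in every brain NSC and pNSC group.

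Genes that make, fold and cross-link collagen moved in some of these comparisons. Of 32 such genes (prolyl and lysyl hydroxylases, chaperones, procollagen proteinases and lysyl oxidases), 31 were tested in the Nes-GFP fit and all 32 in the others. Between Tail-pNSC and Brain-NSC, 11 were called higher and 2 lower, which is 41.9% of those tested against 10.9% of all genes. Fkbp10, an endoplasmic reticulum isomerase required for cross-linking of type I collagen, was at 0.406 and 0.146 cpm in Brain-NSC and 11.03 and 11.9 cpm in Tail-pNSC (5.36 ± 0.24; edgeR adjusted p = 1.45e-109), and Pcolce, an enhancer of the C-proteinase, rose by 2.30 ± 0.12. Between Wnt1Cre-mTmG Tail pNSCs and brain NSCs, 13 were called higher and 1 lower (43.8% against 18.2% of all genes), with a median log2 fold change of 0.48. Serpinh1, the chaperone HSP47, was at 428, 450.4 and 435 cpm in the brain NSCs and 1132, 1136 and 1152 cpm in the Tail pNSCs (1.38 ± 0.035; edgeR adjusted p = 1.15e-15), and Fkbp10 at 5.63, 5.13 and 5.24 cpm and 33.8, 35.4 and 36.9 cpm (2.73 ± 0.084). P4ha3, a prolyl hydroxylase subunit, went from 0.357, 0 and 0.253 cpm to 7.61, 7.31 and 6.69 cpm (5.06 ± 0.32), and the lysyl oxidase genes Lox, Loxl1 and Loxl2 rose by 1.96 ± 0.46, 2.40 ± 0.19 and 2.35 ± 0.17. In the DRG pNSCs 3 of the 32 were called, near the share of all genes (9.38% against 9.53%), all lower: Loxl1, P4ha2 and Lox, the last at few counts.

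In the lung lines 4 of 31 were called in Lung-pNSC, all higher (12.9% against 8.71% of all genes), and 4 of 32 higher and 7 lower in Sox2-GFP lung pNSCs (34.4% against 15.7%). Pcolce was at 1.61, 2.34 and 2.52 cpm in Sox2-GFP brain NSCs and 31.5, 31.04 and 29.97 cpm in the lung pNSCs (3.82 ± 0.094), and it also rose in Lung-pNSC (1.23 ± 0.14). P4ha3 and Loxl2 fell in the Sox2-GFP line, by -4.24 ± 0.25 and -3.52 ± 0.24. Of the 7 collagen receptor genes, Mrc2, an endocytic receptor that clears collagen, rose in Tail-pNSC (4.07 ± 0.084), in Lung-pNSC (1.82 ± 0.12) and in Sox2-GFP lung pNSCs (1.45 ± 0.059). It was not called in Wnt1Cre-mTmG Tail pNSCs (0.34 ± 0.065) or DRG pNSCs (-0.19 ± 0.073). Its tail effect in that line minus the one in the Nes-GFP line was -3.73 ± 0.12 (SE; edgeR adjusted p = 1.44e-25). Ddr2, a receptor tyrosine kinase for fibrillar collagen, fell in Tail-pNSC (-4.66 ± 0.061) and rose in Wnt1Cre-mTmG Tail pNSCs (2.27 ± 0.061), and the difference of these tail effects was 6.93 ± 0.084 (SE; edgeR adjusted p = 1.83e-38). In the DRG pNSCs Ddr2 was also called higher (1.30 ± 0.067). Itga2, the alpha2 integrin chain, was called higher in both tail comparisons, by 2.65 ± 0.42 and 3.93 ± 0.12. It was called lower in DRG pNSCs (-2.54 ± 0.33) and in Sox2-GFP lung pNSCs (-5.39 ± 0.21). Itga1 was called higher in Lung-pNSC (1.75 ± 0.072) and in Sox2-GFP lung pNSCs (2.51 ± 0.066). Itga10, at means of 1.42 and 1.24 cpm, was called higher in Wnt1Cre-mTmG Tail and DRG pNSCs. Itga11 was called higher in those Tail pNSCs, at few counts in the brain NSCs. Against their tissues, 22 of 31 synthesis genes were called lower in Tail-pNSC (71.0%, where 32.6% of all genes were lower) and 13 in Lung-pNSC (41.9%, near the 34.9% of all genes), and the others were not called.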

How the data were processed

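Poly(A) RNA of 28 mouse samples was sequenced as single-end reads. According to the labels' tool list and the study's methods, the authors aligned reads to GRCm38 with HISAT2 2.2.1 and made the deposited table with HTSeq 1.99.2; Cufflinks 2.2.1 is also listed. The table holds raw read counts per gene symbol, which the authors did not normalise, with 28 sample columns and no other per-sample column. The strand setting and annotation release are not given in the sources used here. Totals of 9808246 to 22637031 counts put 3 counts, the floor used here, at 0.130 to 0.296 cpm; counting intervals (95%, exact) and floors cover counting error only.

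Counts were tested in R 4.3.3 with edgeR 4.0.16 (TMM scaling, filterByExpr with a minimum count of 10 and total of 15, glmQLFit and glmQLFTest) in 1 fit for each experiment, the Lung samples entering both the Nes-GFP and the Sox2-GFP fit, and in 1 fit over all samples for interactions. Because each fit has its own scaling, a fold change can differ slightly from the ratio of the printed levels. P-values were adjusted over all genes tested, and a gene was called at adjusted p below 0.05 and a log2 fold change of 1 or more in size. The standard error is the log2 fold change divided by the square root of the F statistic. Fold changes of genes with 3 or fewer counts per library in a group depend on the prior count, and count ratios or bounds are given for them where they matter. Alternatives were DESeq2 1.42.0, relative log expression and upper-quartile scaling, no filter, a mean count of at least 100, a replicate block, only the groups compared, no limit on the fold change, and each replicate left out. The code was tested on simulated data.

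Members were named with values in a comparison if called there or at a group mean of at least 10 cpm. Of the pathway genes that were called, only a part is named. Where most of the family was called (against Lung, Tail or DRG NCSCs), and for members at that level that were not called, only a part is given with values. Per-sample values were given for members at that level in any group; those of Col6a5, below it, were added after its values were seen. The members, the lists of pathway and marker genes and this rule were chosen with earlier results of these data known. Of the neural crest and Schwann cell markers, 1 is not reported here, nor is the sum of that list. Gene positions and exon lengths came from GENCODE M21 (GRCm38), in which all 44 symbols were found, and promoters from RefSeq (GRCm38.p6). Replicate numbers did not pair samples: deviations of 45 same-numbered pairs correlated at -0.0164 to 0.0519.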

Additional observations from a re-analysis of the deposited data

Results flagged for a closer look

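Effects of tail origin and of lung origin on collagen genes were each measured in 2 mouse lines, and the members listed here had an effect that differed between the lines by an interaction term over all 28 samples (edgeR, adjusted over 17393 genes, and a difference of at least 1 on the log2 scale). Mouse line, sorting (for the tail) and age at derivation (for the lung) cannot be told apart, nor can any difference of batch, which is not given in the sources used here.

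For the tail, the Wnt1Cre-mTmG effect minus the Nes-GFP effect was positive for 13 members. It was 6.85 ± 0.99 (SE) for Col6a3, 6.64 ± 0.65 for Col15a1 and 6.50 ± 1.43 for Col6a2, which rose in the Wnt1Cre-mTmG line and were near the detection limit in the Nes-GFP line. It was 4.11 ± 1.31 for Col14a1, a FACIT gene, 3.97 ± 0.85 for the transmembrane gene Col13a1, both called higher in the Wnt1Cre-mTmG line from under 1 cpm and not called in the Nes-GFP line. It was 3.44 ± 0.34 for Col20a1, the one member called with opposite signs in the 2 tail comparisons. The remaining positive differences were 2.78 ± 0.71 for Col1a1, 2.41 ± 0.81 for Col8a2, 1.65 ± 0.38 for Col9a2, 1.54 ± 0.42 for Col23a1, 1.43 ± 0.11 for Col16a1, 1.30 ± 0.38 for Col7a1 and 1.02 ± 0.088 for Col5a2. It was negative for Col28a1, -1.49 ± 0.31, and for Col11a1, -1.34 ± 0.078. The values for Col14a1, Col1a1 and Col6a2 depended on single Brain-NSC samples. Without Brain-NSC replicate 1, Col14a1 came to -1.06 and Col6a2 lost its call (edgeR adjusted p = 0.0784), and without replicate 2, Col1a1 lost its call (edgeR adjusted p = 0.0559). That of Col5a2 came to 0.98 without Wnt1Cre-mTmG Tail pNSC replicate 1.

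For the lung, the Sox2-GFP effect minus the Nes-GFP effect was negative for 10 members. Among them were Col9a3 at -3.51 ± 0.15, Col28a1 at -3.97 ± 0.24 and Col27a1 at -1.43 ± 0.22. Col9a3 and Col27a1 were called lower in the Sox2-GFP line and were not called in the Nes-GFP line, and Col28a1 was called with opposite signs. The rest, at group means under 10 cpm, were Col3a1 at -4.26 ± 1.27, Col2a1 at -3.98 ± 0.90, Col6a1 at -2.47 ± 0.87, Col6a3 at -2.12 ± 0.71, Col23a1 at -1.87 ± 0.33, Col9a1 at -1.67 ± 0.26 and Col9a2 at -1.17 ± 0.25. Positive differences were those of Col15a1 at 4.34 ± 1.26, Col5a1 at 1.09 ± 0.12 and Col16a1 at 1.00 ± 0.11. Many of these calls rested on single samples. Without Lung-pNSC replicate 2, those of Col15a1, Col2a1, Col6a1 and Col3a1 were lost, with edgeR adjusted p of 0.0672, 0.0565, 0.126 and 0.327. Without Lung-pNSC replicate 1, those of Col15a1 and Col6a3 were lost (edgeR adjusted p = 0.0966 and 0.107). Col6a3 also lost its call without Brain-NSC replicate 2 (edgeR adjusted p = 0.0501), and Col6a1 without Brain-NSC replicate 1 (edgeR adjusted p = 0.256) and with DESeq2 (adjusted p = 0.115). Col5a1 came to 0.94 without Brain-NSC replicate 1 and 0.99 without Sox2-GFP brain NSC replicate 1. Col16a1 lay below 1 in every fit with 1 sample left out and came to 0.94 to 0.97 with DESeq2 and under the other scalings and filters.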

How the results depend on the processing

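Of 5813 values of single members under alternatives, 5639 kept their direction and their side of the thresholds, 104 lost a call, 52 gained one and 18 turned direction. Leaving out the limit on the fold change gave 20 called members (10 higher, 10 lower) in place of 12 for Lung-pNSC against Brain-NSC, and 31 (8 higher, 23 lower) in place of 17 for Sox2-GFP lung pNSCs against brain NSCs. A minimum mean count of 100, which tests fewer genes, gave 25 called members in place of 38 for Wnt1Cre-mTmG DRG pNSCs against DRG NCSCs (2 higher, 23 lower) and 25 in place of 38 for Sox2-GFP lung pNSCs against Lung (3 higher, 22 lower). The count for the difference of the lung effects, 13, ranged from 8 to 12 with 1 sample left out, the 8 being without Lung-pNSC replicate 2 (1 higher, 7 lower). With 1 sample left out, the other counts stayed within 1.5 times their value, from 11 to 13 for Tail-pNSC against Brain-NSC (12) to 43 to 44 for Tail-pNSC against Tail (43). Where a group of 2 lost a sample, the lone sample was assumed to vary like the other groups. Of the values that turned direction, that of Col16a1 in Sox2-GFP lung pNSCs against Lung came to -0.0489 with the minimum mean count of 100, and that of Col5a3 for the lung difference to -0.0319 with DESeq2, -0.0287 with relative log expression, -0.0230 with upper-quartile scaling and -0.00885 without a filter. With 1 sample left out, Col4a5 in Lung-pNSC against Brain-NSC ranged from -0.0915 to 0.0302 (turned by Brain-NSC 2), Col4a1 in Tail against Lung from -0.0700 to 0.000147 (Lung 1) and Col5a1 in DRG pNSCs against brain NSCs from -0.0427 to 0.106 (DRG pNSC 3). For the tail difference, Col14a1 ranged from -1.06 to 7.91 and Col27a1 from -0.0167 to 0.555 (both Brain-NSC 1), Col4a6 from -3.49 to 1.56 (Tail-pNSC 1) and Col6a1 from -0.550 to 2.44 (Brain-NSC 2). For the lung difference, Col18a1 ranged from -1.12 to 0.410 (Lung-pNSC 2) and Col5a3 from -0.132 to 0.139 (Brain-NSC 2, Lung-pNSC 1, Sox2-GFP brain NSC 2 and 3 and lung pNSC 2). Of these, Col14a1 alone was called over all samples. The causes were not tested. A replicate block, although the numbers do not pair samples, gave 11 called members in place of 12 for Tail-pNSC against Brain-NSC and 37 in place of 38 for DRG pNSCs against DRG NCSCs, losing Col4a3 and Col4a6, and changed no other call of a member. Depth limits members below 0.130 to 0.296 cpm, for which absence cannot be told from a low level.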

Other observations

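Several members had their highest group mean in Tail or Lung. Col10a1, the collagen of hypertrophic cartilage, was at 755 and 753 cpm in Tail, and Col11a2, a cartilage fibril chain, at 4266 and 4111 cpm. Col17a1 and Col7a1, which anchor epidermis to dermis, were at 529 and 515 and 346 and 337 cpm in Tail and at 15.5 and 13.97 and 30.9 and 26.3 cpm in Lung. Col6a5 and Col6a6, type VI chains that can stand in for alpha3, were at 5.93 and 5.11 and 1.69 and 2.06 cpm in Lung and at 1.97 and 2.30 and 86.8 and 80.98 cpm in Tail. The transmembrane gene Col13a1, found at muscle endplates and other cell junctions, was at 111 and 106 cpm in Lung and 23.5 and 24.1 cpm in Tail. In DRG NCSCs Col8a1, a short-chain gene of vessel and eye matrix, was at 44.04, 46.6 and 46.8 cpm and Col14a1 at 15.7, 14.4 and 12.2 cpm, whereas in the DRG pNSCs Col8a1 was at 0 in all 3 samples and Col14a1 at 0.0847, 0.394 and 0.0962 cpm.

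Pairs of genes whose products share a molecule did not always move together across the 8 brain NSC and pNSC group means. The Pearson r of log2(mean cpm + 1) was 0.965 for Col1a1 and Col1a2, 0.930 for Col6a1 and Col6a2 and 0.872 for Col6a1 and Col6a3, but 0.108 for Col9a1 and Col9a3 and 0.122 for Col4a3 and Col4a4, of which the last pair was near its detection limit in these groups. Col3a1 and Col5a2, neighbours on chromosome 1, had an r of -0.238. Over all 11 groups the values were 0.995, 0.984, 0.979, 0.841, 0.974 and 0.682. These are descriptions over group means that share libraries and scaling, and for the type I and type VI genes over the 8 groups 1 group, the Wnt1Cre-mTmG Tail pNSCs, lay far above the rest.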
